A study of Caenorhabditis elegans with 24 samples.

Results

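The 5 genes H39E23.3, F56D6.9, F45D11.14, R05H10.7 and scl-20 of Caenorhabditis elegans were followed across 6 genotypes, out of 21689 genes with a value. They were chosen by the size of their measured rise in daf-2 over wt and of its loss in daf-16;daf-2, so those contrasts are given below as descriptions, with no test. The choice carried no threshold. All 5 genes passed the minimum for testing, a mean of 3 across the 24 libraries, as did 14482 genes in all. For scl-20 this rested on daf-2 and daf-2;htz-1, where it was high, since its mean over the other 4 genotypes was 2.55. A symbol with a family name was available for scl-20 alone, and the other 4 carry the names of the clones they were predicted on.

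RNA of whole animals on the first day of young adulthood was sequenced in 4 libraries per genotype, 1 of each genotype in each of 4 labelled batches, so replicate numbers are batch numbers. The genotypes were daf-16;daf-2;htz-1 (alleles mu86, e1370 and bon101), called the triple mutant here, daf-2;htz-1 (e1370 and bon101), called the htz-1 double mutant, htz-1 (bon101) with no other allele, daf-16;daf-2 (mu86 and e1370), called the daf-16 double mutant, daf-2 (e1370) and the strain N2 (wt). All were kept at 20 degrees C on OP-50-1 E. coli. The allele mu86 removes part of daf-16, and e1370 is a point mutation of the receptor that leaves a temperature-sensitive protein. The sources used here do not say what bon101 changes in htz-1.

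DAF-2 is the insulin and IGF-1 receptor of the worm. When it signals, the FOXO factor DAF-16 is held in the cytoplasm, and when its signal falls DAF-16 enters the nucleus and activates genes of stress resistance and long life, many of them in the intestine. HTZ-1 is the histone variant H2A.Z, which stands in for H2A in nucleosomes beside promoters. The scl genes encode SCP-like secreted proteins with a CAP domain, a family that also holds venom allergens and secreted proteins of parasitic worms.

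The values are regularized log2 (rlog) values on a scale that the 24 libraries share, where a difference of 1 stands for a doubling except in genes with few reads, whose differences the transformation shrinks. The number of reads behind a value is unknown. The daf-16 transcript lay between 8.47 and 9.72 in the triple mutant, against 9.94 to 10.34 in the htz-1 double mutant, and between 9.70 and 9.99 in the daf-16 double mutant, against 10.23 to 10.48 in daf-2, with no overlap in either pair. The second difference, -0.45, was not called (adjusted p = 0.109 by limma). With daf-16 intact, the transcript was also lower in htz-1 than in wt (-0.83, adjusted p = 0.00165), so a low level does not by itself mark mu86. The htz-1 transcript was not lower in the 12 libraries with bon101 (11.20 to 11.70) than in the 12 without it (10.62 to 11.30), and since the part of the transcript that bon101 or e1370 alters is not known here, htz-1 and daf-2 transcript levels check no label. As these were whole animals, fewer cells of a type and less RNA per cell cannot be told apart.

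The library labelled replicate 3 of the triple mutant stood apart from the other 3 of its genotype. Its mean correlation with them over all tested genes was 0.951, the lowest such value of the 24 libraries, and its mean correlation with the htz-1 libraries was 0.957. All 5 genes were higher in it than in the other 3 triple mutant libraries. The daf-16 transcript in it (9.72) was also the highest of the 4. Results of the 5 genes that rest on it are given with and without this library.

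**Figure D1:**
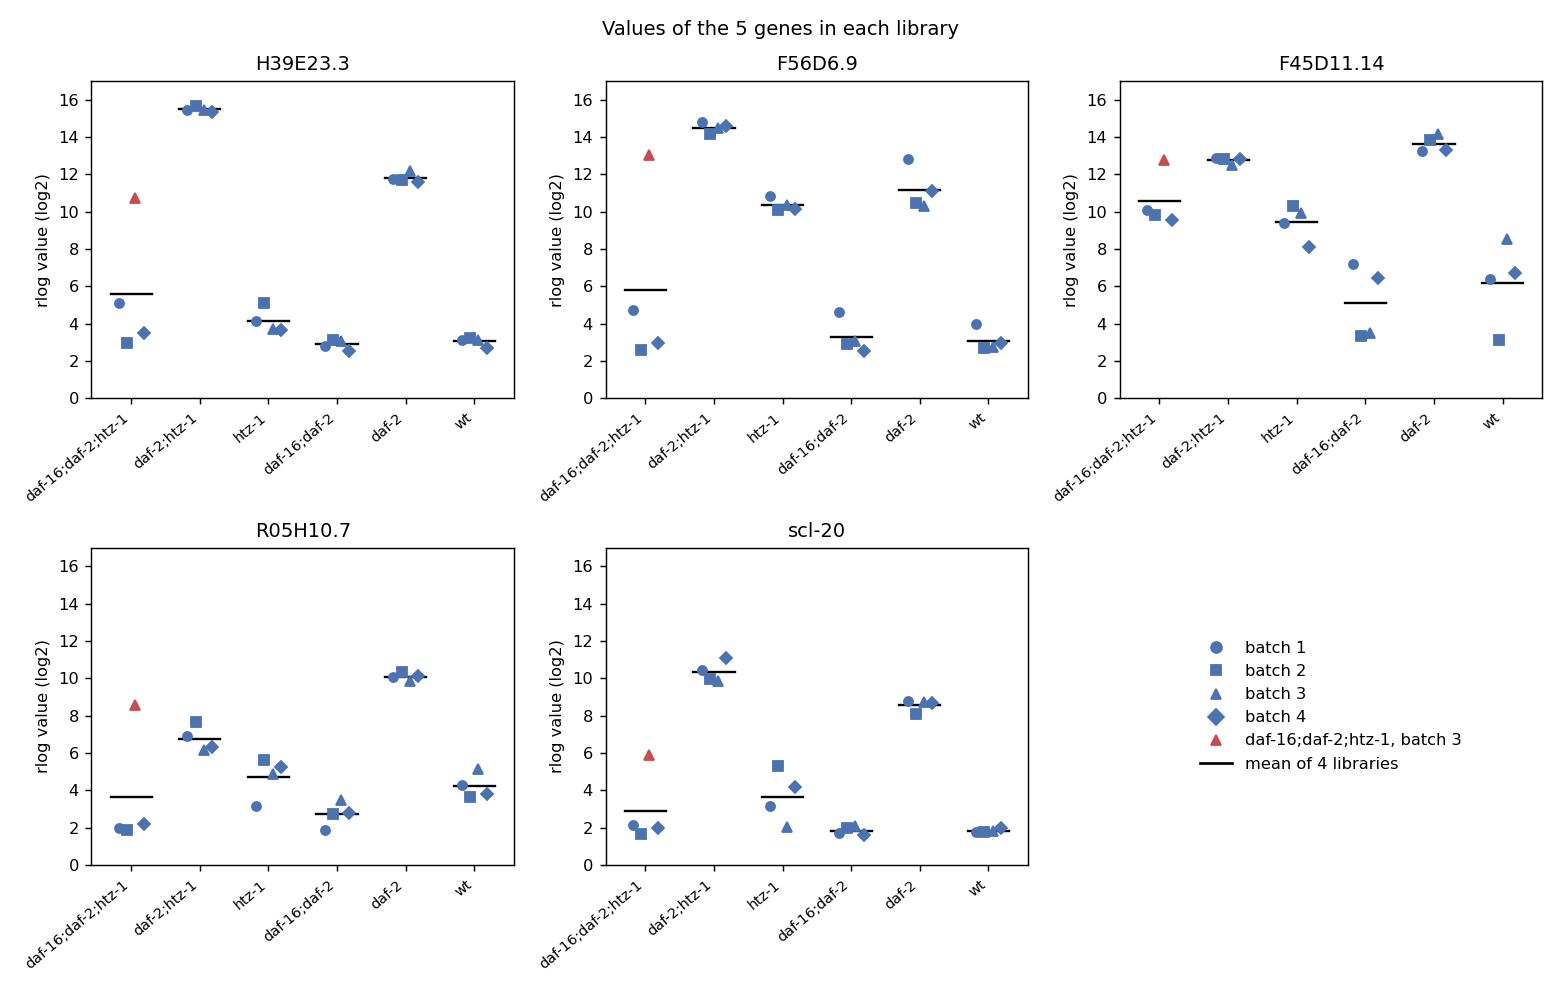
Rlog value (log2) of each of the 5 genes in each of 24 libraries, with the 6 genotypes along the horizontal axis, 1 marker shape per batch and a bar at the mean of 4 libraries. All 5 genes were high in daf-2 and low in daf-16;daf-2, and replicate 3 of daf-16;daf-2;htz-1 (red) lay above the other 3 libraries of its genotype for every gene.

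The contrasts that chose the genes were large and in the same direction for all 5. The value in daf-2 exceeded that in wt by 8.75 for H39E23.3, 8.10 for F56D6.9, 7.46 for F45D11.14, 6.74 for scl-20 and 5.87 for R05H10.7. In that contrast 6.43% of all tested genes were called higher, and among them the 5 genes ranked 3, 4, 6, 9 and 15 by size. The difference between the daf-16 double mutant and daf-2 was -8.90 for H39E23.3, -8.51 for F45D11.14, -7.89 for F56D6.9, -7.37 for R05H10.7 and -6.73 for scl-20, where 9.65% of all genes were called lower. Nothing is read from these counts, since the contrasts selected the genes.

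The gene scl-20 (WBGene00013972) lies on chromosome V, 18732798 to 18734481 of WBcel235, on the minus strand, with 4 exons and 636 coding bases for 212 codons. It read 2.12, 1.64, 5.87 and 1.96 in replicates 1 to 4 of the triple mutant, 10.42, 9.98, 9.85 and 11.07 in the htz-1 double mutant and 3.16, 5.28, 2.01 and 4.19 in htz-1. It read 1.69, 1.95, 2.07 and 1.62 in the daf-16 double mutant, 8.80, 8.06, 8.71 and 8.66 in daf-2 and 1.78, 1.74, 1.79 and 1.96 in wt. Every library that carried a daf-2 mutation with intact daf-16 lay at 8.06 or above, and every other library lay at 5.87 or below. The order of the means was the htz-1 double mutant, daf-2, htz-1, the triple mutant, the daf-16 double mutant and wt, and from htz-1 downward each neighbouring pair of groups overlapped.

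Within htz-1 mutants scl-20 was also higher with the daf-2 allele. It averaged 10.33 ± 0.55 in the htz-1 double mutant and 3.66 ± 1.40 in htz-1 (SD, n = 4 each), a difference of 6.67 ± 0.65 (SE). That difference is a description, because scl-20 passed the minimum mean through daf-2 and the htz-1 double mutant, where it was high. The difference between the triple mutant and the htz-1 double mutant was -7.43, and -8.42 without replicate 3, which is a description because DAF-16 dependence chose the gene. The gene averaged 2.90 ± 1.99 in the triple mutant, against 3.66 ± 1.40 in htz-1, a difference of -0.76 ± 0.65 (adjusted p = 0.633 by limma). Without replicate 3 of the triple mutant that difference was -1.75 ± 0.47 (adjusted p = 0.0417, in a range of 0.00567 to 0.979 over 28 fits that each left out a library or a batch), and without batch 2 it was 0.20.

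The htz-1 allele alone raised scl-20. It averaged 3.66 ± 1.40 in htz-1 and 1.82 ± 0.10 in wt, a difference of 1.84 ± 0.65 (adjusted p = 0.0213), with every htz-1 library above every wt library and a positive difference in each batch (0.22 to 3.54). In the daf-2 background the difference was of like size, 1.77 ± 0.65 (adjusted p = 0.033, and 0.0421 with no minimum mean). It was again positive in each batch (1.15 to 2.41), though scl-20 passed the minimum mean through the 2 groups compared. Both calls were narrow: the first ended without htz-1 replicate 2 or 4 or without batch 1, 2 or 4 (1.28 to 2.00, adjusted p up to 0.17), and the second without htz-1 double mutant replicate 1 or 4, daf-2 replicate 2, 3 or 4, or batch 1, 2 or 4 (1.53 to 1.82, adjusted p up to 0.161). Without triple mutant replicate 3 the residual SD of scl-20 was 0.66 in place of 1.03, and the adjusted p-values were 0.00108 against wt and 0.00221 against daf-2. In the daf-16 double mutant background the difference was 1.07 ± 0.65 (adjusted p = 0.185) with replicate 3 and 0.08 ± 0.47 (adjusted p = 0.907) without it.

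Of the 3 nearest genes with a value on each side of scl-20, scl-19 and asp-18 were high in the same genotypes. scl-19 (WBGene00013971, V, 18731991 to 18732772, plus strand) ends 25 bases from scl-20 and runs toward it, and SMART-Seq2 libraries do not mark the strand, so reads from the shared end cannot be assigned by strand. scl-19 averaged 9.90 ± 0.61 in the htz-1 double mutant and 2.11 ± 1.10 in htz-1, and 8.59 ± 1.57 in daf-2 and 1.72 ± 0.09 in wt. asp-18, which encodes an aspartyl protease and lies 1118 bases from scl-20 on its strand, averaged 7.88 ± 0.60 in the htz-1 double mutant and 1.41 ± 0.33 in htz-1, and 7.51 ± 1.82 in daf-2 and 1.41 ± 0.08 in wt. Both passed the minimum mean through daf-2 and the htz-1 double mutant alone, so these differences are descriptions. The difference htz-1 minus wt was 0.39 ± 0.99 for scl-19 (adjusted p = 0.766 by limma) and -0.0021 ± 0.74 for asp-18 (adjusted p = 0.998). The htz-1 double mutant minus daf-2, again a description, was 1.31 ± 0.99 for scl-19 and 0.37 ± 0.74 for asp-18. Both genes were low in htz-1 and in wt (means of 1.41 to 2.11), and whether they differed from scl-20 was not tested. Both were also high in triple mutant replicate 3, where scl-19 read 8.47 and asp-18 5.61, against at most 2.22 for scl-19 and 1.54 for asp-18 in the other 3 libraries. On the other side, the non-coding gene ZK384.7 followed the htz-1 allele instead, with 5.88 in htz-1 and 4.62 in wt (difference 1.26 ± 0.30, adjusted p = 0.00125). The genes linc-25, clec-250 and WBGene00045363 were below the minimum mean.

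H39E23.3 (WBGene00044201) lies on chromosome V, 14107811 to 14110051, on the plus strand, as a single exon of 2238 coding bases (746 codons). It read 5.09, 2.95, 10.74 and 3.52 in replicates 1 to 4 of the triple mutant, 15.44, 15.63, 15.47 and 15.35 in the htz-1 double mutant and 4.16, 5.11, 3.70 and 3.64 in htz-1. It read 2.82, 3.14, 3.06 and 2.53 in the daf-16 double mutant, 11.73, 11.67, 12.15 and 11.59 in daf-2 and 3.12, 3.24, 3.13 and 2.67 in wt. The htz-1 double mutant and daf-2 each stood clear of all other libraries. The triple mutant and htz-1 overlapped, as did wt and the daf-16 double mutant.

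Of all 14482 tested genes, H39E23.3 had the largest difference between the htz-1 double mutant and htz-1. It averaged 15.48 ± 0.12 in the htz-1 double mutant and 4.15 ± 0.68 in htz-1, a difference of 11.32 ± 0.92 (adjusted p = 4.11e-09, and 2.68e-17 without triple mutant replicate 3). The choice of genes may have used these htz-1 double mutant libraries, so the rank is a description and the p-values may be too small. H39E23.3 was also higher in the htz-1 double mutant than in daf-2, where it averaged 11.79 ± 0.25. That difference was 3.69 ± 0.92 (adjusted p = 0.00239), it lay between 3.32 and 3.97 in the 4 batches, and it stayed past the threshold in each of 28 fits that left out a library or a batch (adjusted p up to 0.0234).

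In the wt background the htz-1 difference of H39E23.3 depended on 1 library. It averaged 4.15 ± 0.68 in htz-1 and 3.04 ± 0.25 in wt, with no overlap, and the difference of 1.11 ± 0.92 did not pass (adjusted p = 0.327). Without triple mutant replicate 3 the same difference had an SE of 0.34 and passed (adjusted p = 0.00817), as it did without batch 3 (1.29, adjusted p = 0.0187), in a range of 0.00817 to 0.538 over the 28 leave-out fits. In the daf-16 double mutant background the difference was 2.69 ± 0.92 (adjusted p = 0.0181) with all libraries and 0.97 ± 0.37 (adjusted p = 0.0326) without replicate 3, and the call ended without batch 1 (2.83, adjusted p = 0.0639) or batch 3 (1.02, adjusted p = 0.0581), in a range of 0.00211 to 0.0639. Between the triple mutant and htz-1 it was 1.42 ± 0.92 (adjusted p = 0.522), and -0.30 ± 0.37 (adjusted p = 0.734) without replicate 3.

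The nearest gene before H39E23.3, D1086.9 (WBGene00008396, V, 14104270 to 14106330, the same strand, 1480 bases away), had a different pattern. It read 1.86, 0.96, 7.01 and 1.24 in replicates 1 to 4 of the triple mutant, 10.34, 10.72, 9.55 and 10.43 in the htz-1 double mutant, 1.70, 2.36, 1.01 and 1.22 in htz-1 and 4.19, 0.79, 1.37 and 1.21 in daf-2. It was thus high in the htz-1 double mutant and in triple mutant replicate 3 and low in daf-2 and htz-1, with differences of 8.37 from daf-2 and 8.69 from htz-1, given as descriptions because D1086.9 passed the minimum mean through the htz-1 double mutant, where it was high (mean 1.64 over the 4 genotypes other than daf-2 and the htz-1 double mutant). D1086.1, 7119 bases away on the same strand, was higher in htz-1 than in wt (3.19 ± 0.28, adjusted p = 1.2e-09), in the htz-1 double mutant than in daf-2 (2.53 ± 0.28, adjusted p = 1.41e-07) and in daf-2 than in wt (1.94 ± 0.28, adjusted p = 2.7e-05). On the other side, H39E23.2 was below the minimum mean for testing, and the kinase gene par-1 lay between 10.73 and 10.99 in the means of all 6 groups.

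F56D6.9 (WBGene00044471) lies on chromosome IV, 3892327 to 3893326, on the plus strand, with 2 exons, 189 coding bases (63 codons), a 5′ UTR of 685 bases and a 3′ UTR of 71. Its first 237 bases (23.7% of its span) overlap oac-21 on the same strand, an acyltransferase-like gene whose 6 group means lay between -1.1 and -1.0, near the lowest values of the table. F56D6.9 read 4.71, 2.57, 13.03 and 2.94 in replicates 1 to 4 of the triple mutant, 14.78, 14.14, 14.48 and 14.59 in the htz-1 double mutant and 10.82, 10.10, 10.37 and 10.14 in htz-1. It read 4.63, 2.92, 3.06 and 2.54 in the daf-16 double mutant, 12.81, 10.48, 10.29 and 11.13 in daf-2 and 3.97, 2.68, 2.73 and 2.93 in wt. It was the 1 gene of the 5 whose htz-1 and daf-2 libraries overlapped.

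The htz-1 allele alone raised F56D6.9 by 7.28 ± 1.29 over wt (10.36 ± 0.33 in htz-1 and 3.08 ± 0.60 in wt, adjusted p = 4.27e-05), the seventh largest rise of all tested genes in that contrast. It was 6.85 to 7.63 in the 4 batches and passed in each of 28 leave-out fits (adjusted p up to 0.00116). In the htz-1 double mutant F56D6.9 was higher than in daf-2 (14.50 ± 0.27 against 11.18 ± 1.14) by 3.32 ± 1.29 (adjusted p = 0.0427) and higher than in htz-1 by 4.14 ± 1.29 (adjusted p = 0.0247). Both of these calls were lost in several leave-out fits. The first was lost without any htz-1 double mutant library, daf-2 replicate 2, 3 or 4, or batch 1, 2 or 4 (3.03 to 3.77, adjusted p up to 0.127), and the second without htz-1 double mutant replicate 1, 3 or 4, htz-1 replicate 2 or 4, or batch 1, 2 or 4 (4.04 to 4.20, adjusted p up to 0.122). When triple mutant replicate 3 was left out, the differences had an SE of 0.49, with adjusted p = 1.07e-05 against daf-2 and 1.36e-06 against htz-1. The choice of genes may have used the htz-1 double mutant libraries, so the p-values against htz-1 may be too small.

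Whether the htz-1 rise of F56D6.9 was present without daf-16 rested on 1 library. In the triple mutant it averaged 5.81 ± 4.90, against 3.29 ± 0.92 in the daf-16 double mutant, a difference of 2.52 ± 1.29 (adjusted p = 0.111), and without replicate 3 the difference was 0.12 ± 0.53 (adjusted p = 0.874). Leaving out triple mutant replicate 2 or 4, it was 3.61 (adjusted p = 0.0263) or 3.48 (adjusted p = 0.0353), and over the 28 leave-out fits the adjusted p was 0.0263 to 0.963. Batches 1, 2 and 4 gave -0.35 to 0.40 and batch 3 gave 9.97. The difference between the htz-1 effect in the daf-16 double mutant background and in the wt background was -4.75 ± 1.83 (adjusted p = 0.24) with all libraries and -7.16 ± 0.73 (adjusted p = 2.23e-06, in a range up to 0.613) without replicate 3. Against htz-1, the triple mutant differed by -4.55 ± 1.29 (adjusted p = 0.0821), and by -6.95 ± 0.53 (adjusted p = 1.04e-08, in a range up to 0.653) without replicate 3.

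The 2 genes after F56D6.9 rose in the same genotypes. F56D6.8 (WBGene00044292, IV, 3894058 to 3894430, minus strand) and dct-8 (WBGene00044472, IV, 3895070 to 3895506, plus strand), named for control by DAF-16 in earlier work, lie 731 and 1743 bases away. F56D6.8 was higher in htz-1 than in wt by 5.02 ± 0.98 (adjusted p = 0.000133) and in daf-2 than in wt by 4.31 ± 0.98 (adjusted p = 0.00408). dct-8 was higher in htz-1 than in wt by 5.34 ± 0.75 (adjusted p = 1.82e-06) and in daf-2 than in wt by 3.32 ± 0.75 (adjusted p = 0.00389). The htz-1 double mutant exceeded daf-2 by 4.24 for F56D6.8 (adjusted p = 0.00123) and 4.30 for dct-8 (adjusted p = 6.94e-05). In triple mutant replicate 3 F56D6.8 read 9.59 and dct-8 read 8.69, against at most 3.63 for F56D6.8 and 4.79 for dct-8 in the other 3 libraries of that genotype. On the other side of F56D6.9, oac-23 was lower in htz-1 than in wt by 2.05 ± 0.34 (difference -2.05, adjusted p = 2.06e-05).

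**Figure D2:**
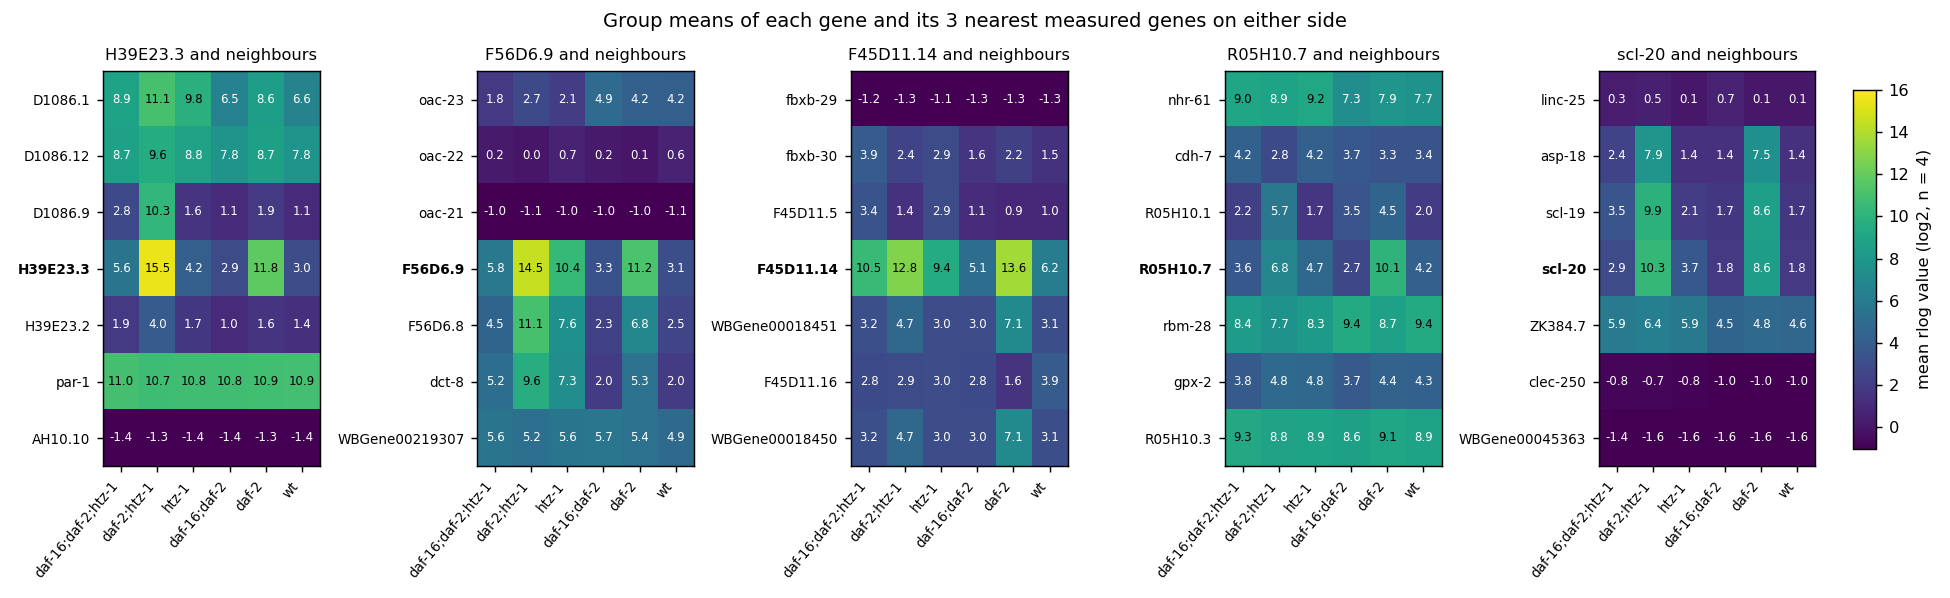
Mean rlog value (log2, 4 libraries per genotype) of each of the 5 genes (bold) and of its 3 nearest genes with a value on either side, in chromosome order, with the genotypes along the horizontal axis and the mean printed in each cell. The genes scl-19 and asp-18 beside scl-20, and F56D6.8 and dct-8 beside F56D6.9, were high in the genotypes where their neighbour was high, and D1086.9 beside H39E23.3 was high in daf-2;htz-1 with 10.3 and low in daf-2 with 1.9.

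F45D11.14 (WBGene00018459) lies on chromosome II, 1004616 to 1006475, on the minus strand, with 8 exons and 1524 coding bases (508 codons). It read 10.07, 9.82, 12.77 and 9.52 in replicates 1 to 4 of the triple mutant, 12.88, 12.85, 12.51 and 12.85 in the htz-1 double mutant and 9.41, 10.30, 9.90 and 8.10 in htz-1. It read 7.21, 3.35, 3.49 and 6.45 in the daf-16 double mutant, 13.23, 13.85, 14.17 and 13.30 in daf-2 and 6.40, 3.10, 8.52 and 6.69 in wt. All 4 triple mutant libraries lay above every wt and daf-16 double mutant library, which held for none of the other 4 genes. The wt and daf-16 double mutant libraries of F45D11.14 were widely spread (SD 2.0 in the daf-16 double mutant and 2.26 in wt).

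The htz-1 allele raised F45D11.14 in the daf-16 double mutant background and in the wt background. In the latter the libraries overlapped, with a lowest value of 8.10 in htz-1 and a highest of 8.52 in wt for F45D11.14. It averaged 9.43 ± 0.96 in htz-1 and 6.18 ± 2.26 in wt, a difference of 3.25 ± 0.88 (adjusted p = 0.00344) that was positive in each batch (1.38 to 7.20) and lost its call without batch 2 (1.94, adjusted p = 0.0721). It averaged 10.55 ± 1.5 in the triple mutant and 5.12 ± 2.0 in the daf-16 double mutant, a difference of 5.42 ± 0.88 (adjusted p = 1.4e-05), and of 4.68 ± 0.88 (adjusted p = 0.000109) without triple mutant replicate 3. The second difference was positive in each batch (2.86 to 9.29) and passed in each of 28 leave-out fits. The effect did not differ detectably between those backgrounds (2.17 ± 1.25, adjusted p = 0.388, 95% confidence interval -0.41 to 4.75). Without triple mutant replicate 3 this was 1.43 ± 1.21 (adjusted p = 0.532), and the leave-out fits ranged between 0.26 and 3.20. The triple mutant and htz-1 differed by 1.12 ± 0.88 (adjusted p = 0.605, interval -0.70 to 2.94), and by 0.38 ± 0.88 (adjusted p = 0.877) without that library.

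In the daf-2 background the htz-1 allele gave no rise of F45D11.14. It averaged 12.77 ± 0.17 in the htz-1 double mutant and 13.64 ± 0.45 in daf-2, a difference of -0.87 ± 0.88 (adjusted p = 0.454), negative in each batch (-1.66 to -0.35). All 4 htz-1 double mutant libraries lay below all 4 daf-2 libraries. A fit of those 2 groups alone gave adjusted p = 0.00671 for the same difference. Between the htz-1 double mutant and htz-1 the difference was 3.34 ± 0.88 (adjusted p = 0.00865), and it did not pass when batch 4 was left out (2.87, adjusted p = 0.103). These p-values may be too small, since the choice of genes may have used the htz-1 double mutant libraries. As a description, since they contain the choosing contrasts, the htz-1 effect in the daf-2 background minus that in the wt background was -4.12, and that in the daf-16 double mutant background minus that in the daf-2 background was 6.29 (5.55 without replicate 3).

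The region beside F45D11.14 holds repeated copies. The pseudogenes WBGene00018451, WBGene00018450 and WBGene00018449 (II, 1007792 to 1020682, plus strand), 3 features of equal length, had identical values in every library to 6 decimals, so the reads behind them cannot be assigned to 1 of them. How far F45D11.14 shares reads with other copies was not analysed here, and its values are uncertain to that extent. These pseudogenes were higher in daf-2 than in wt by 4.05 ± 0.67 (adjusted p = 0.000175 for WBGene00018451) and lower in the htz-1 double mutant than in daf-2 (-2.43 ± 0.67, adjusted p = 0.00553). The genes F45D11.5, fbxb-29, fbxb-30 and F45D11.16 were below the minimum mean for testing.

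R05H10.7 (WBGene00011046) lies on chromosome II, 14855529 to 14857019, on the plus strand, with 3 exons, 678 coding bases (226 codons), a 5′ UTR of 7 bases and a 3′ UTR of 70. It read 2.00, 1.85, 8.58 and 2.17 in replicates 1 to 4 of the triple mutant, 6.9, 7.67, 6.15 and 6.31 in the htz-1 double mutant and 3.16, 5.60, 4.85 and 5.24 in htz-1. It read 1.89, 2.74, 3.49 and 2.76 in the daf-16 double mutant, 10.06, 10.33, 9.85 and 10.10 in daf-2 and 4.30, 3.62, 5.15 and 3.78 in wt. The daf-2 libraries stood clear of all others, and triple mutant replicate 3 lay above all 4 htz-1 double mutant libraries.

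R05H10.7 was the 1 gene of the 5 called lower with the htz-1 allele in the daf-2 background in the fit to all 24 libraries. It averaged 6.76 ± 0.69 in the htz-1 double mutant and 10.09 ± 0.20 in daf-2, a difference of -3.33 ± 0.93 (adjusted p = 0.00583, and 2.81e-06 without triple mutant replicate 3). It was -3.79 to -2.66 in the 4 batches and passed in each of 28 leave-out fits (adjusted p up to 0.0493). With daf-2 intact the htz-1 effect was 0.50 ± 0.93 (4.71 ± 1.08 in htz-1 and 4.21 ± 0.69 in wt, adjusted p = 0.678, interval -1.41 to 2.41), and the libraries overlapped. In the daf-16 double mutant background it was 0.93 ± 0.93 (adjusted p = 0.43) with replicate 3 and -0.71 ± 0.48 (adjusted p = 0.232) without it.

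Within htz-1 mutants R05H10.7 was also higher with the daf-2 allele. The 4 htz-1 double mutant libraries all lay above the 4 htz-1 libraries, by 2.05 ± 0.93 (adjusted p = 0.13), a difference that passed without triple mutant replicate 3 (SE 0.44, adjusted p = 0.00167) and without batch 3 (2.29, adjusted p = 0.00377), in a range of 0.00167 to 0.419. These p-values may be too small, since the choice of genes may have used the htz-1 double mutant libraries. Between the triple mutant and htz-1 the difference was -1.06 ± 0.93 (adjusted p = 0.64), and -2.71 ± 0.48 (adjusted p = 0.00152, in a range up to 0.985) without replicate 3. Of its neighbours, R05H10.1, 1901 bases before it on the same strand, averaged 5.75 ± 0.33 in the htz-1 double mutant and 1.70 ± 0.17 in htz-1. R05H10.1 was higher in the htz-1 double mutant than in daf-2 by 1.29 ± 0.40, where R05H10.7 was lower. It passed the minimum mean through those daf-2 mutants alone, so these differences are descriptions. The RNA-binding protein gene rbm-28, which starts 239 bases after R05H10.7, was lower in htz-1 than in wt (-1.15 ± 0.23, adjusted p = 0.000153).

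**Figure D3:**
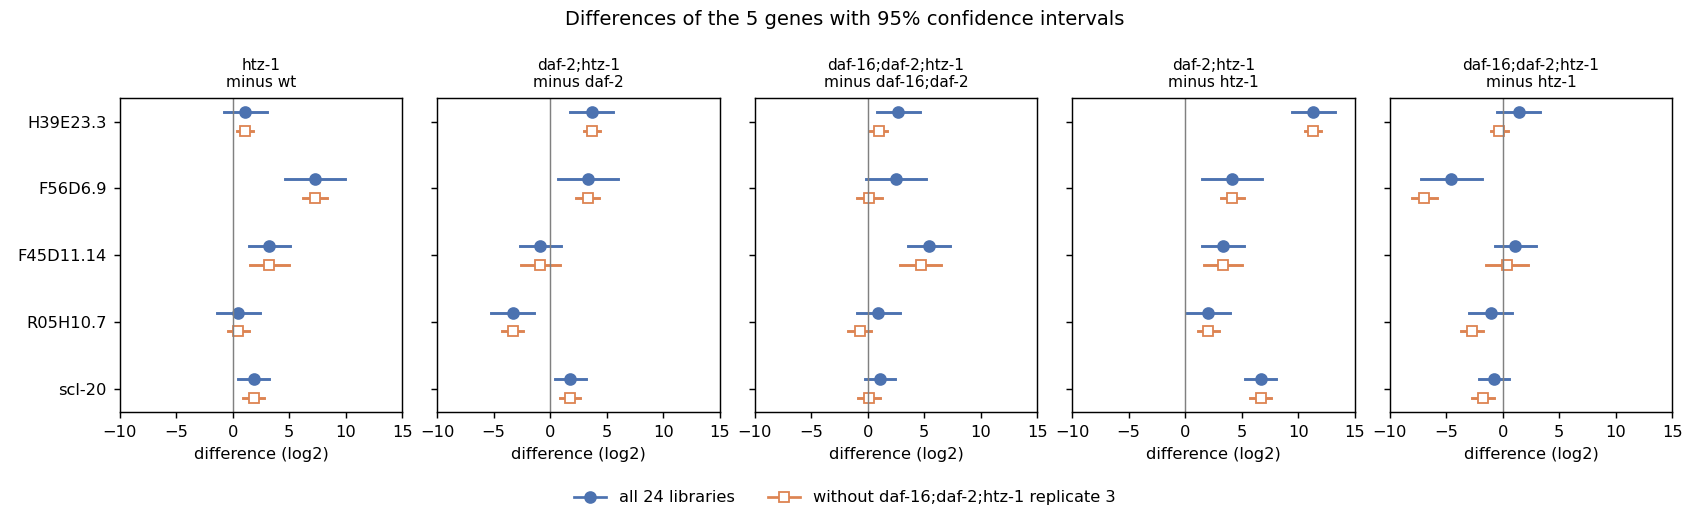
Differences (log2) of the 5 genes in the 5 pairwise contrasts that were tested, with 95% confidence intervals from the fit to all 24 libraries (filled) and to 23 without replicate 3 of daf-16;daf-2;htz-1 (open). Without that library the intervals of the genes other than F45D11.14 were clearly narrower. In both fits the intervals of all 5 genes lay above 0 in daf-2;htz-1 minus htz-1, and that of F45D11.14 lay above 0 in daf-16;daf-2;htz-1 minus daf-16;daf-2.

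Counted over the 5 genes, the rise with daf-2 within htz-1 mutants was called for 4 of 5 (all but R05H10.7) where 11.5% of all tested genes were called higher and 8.04% lower, and for 5 of 5 without triple mutant replicate 3, where the share was 12.7%. Leaving aside scl-20, which passed the minimum mean through the groups where it was high, these counts were 3 of 4 and 4 of 4. In all 5 the 4 htz-1 double mutant libraries lay above the 4 htz-1 libraries, as they did in 18.3% of tested genes. The htz-1 allele alone raised 3 of 5 over wt (F56D6.9, F45D11.14 and scl-20), where 26.4% of all genes were called higher. In the daf-2 background it raised 3 of 5 (H39E23.3, F56D6.9 and scl-20) and lowered R05H10.7, where 20.4% of genes were called higher and 20.1% lower. As scl-20 passed the minimum mean through the groups compared there, its call adds nothing to that count. In the daf-16 double mutant background the htz-1 allele raised 2 of 5 (H39E23.3 and F45D11.14), where 24.1% were called higher. Nothing particular to the 5 genes is read from counts of 2 or 3 beside shares of this size. These contrasts share their wt, daf-2 and daf-16;daf-2 libraries with the contrasts that chose the genes. The htz-1 double mutant libraries also carry the DAF-16 dependence within htz-1 mutants, which the choice of genes may have used, so the counts support no statement beyond these genes.

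Between the triple mutant and htz-1, limma called none of the 5 genes, where 0.677% of all tested genes were called higher and 0.78% lower. F56D6.9 had an unadjusted p of 0.00173 by limma, and the other 4 had unadjusted p-values between 0.135 and 0.263. In the fit without that replicate 3, F56D6.9, R05H10.7 and scl-20 were called lower, where 2.33% of all genes were. The htz-1 effect differed between the daf-16 double mutant and wt backgrounds for none of the 5 (0.138% of all genes called higher and 0.311% lower), and F56D6.9 alone had an unadjusted p under 0.05 by limma (0.0155). Without replicate 3 it differed for F56D6.9, where 1.12% were called lower.

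The 5 genes varied more between libraries of 1 genotype than most genes did. Their residual SDs were 1.03 to 2.11, against a median of 0.39 over all tested genes. Without triple mutant replicate 3 they were 0.51 for H39E23.3, 0.66 for scl-20, 0.68 for R05H10.7, 0.80 for F56D6.9 and 1.35 for F45D11.14. That of F45D11.14 stayed larger than in 99.8% of tested genes, and that of H39E23.3 than in 75.7%.

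The deviation of triple mutant replicate 3 was shared by many genes. Of 155 tested genes whose htz-1 double mutant mean was at least 3 above the mean of triple mutant replicates 1, 2 and 4, with no overlap between those libraries, replicate 3 lay above the other 3 in 146 (94.2%), while it did so in 26.3% of all tested genes. The median excess of replicate 3 in that set was 2.61, against a median difference of 4.02 for the htz-1 double mutant. Of 105 genes at least 3 lower by the same measure, replicate 3 lay below the other 3 in 35 (33.3%), against 31% of all tested genes. The excess was 9.62 for F56D6.9, 6.88 for H39E23.3, 6.58 for R05H10.7, 3.96 for scl-20 and 2.96 for F45D11.14. The part that this library's make-up plays in the results was not tested, and the values of the 5 genes without it are given above.

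**Figure D4:**
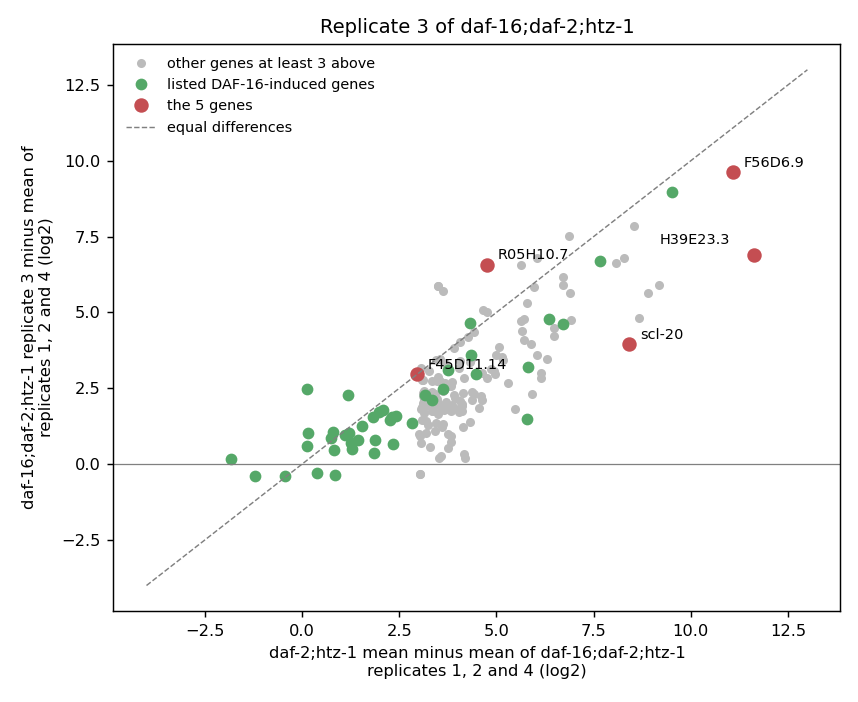
For each gene, the excess of replicate 3 of daf-16;daf-2;htz-1 over the mean of replicates 1, 2 and 4 (vertical axis, log2) against the excess of the daf-2;htz-1 mean over the same 3 libraries (horizontal axis, log2), for the 5 genes (red), listed DAF-16-induced genes (green) and other genes with a horizontal value of at least 3 (grey). Points on the dashed line would have the same excess in both, and the 5 genes lay between 2.96 and 9.62 on the vertical axis, with R05H10.7 above the line.

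By Pearson correlation over the 24 libraries, the genes most like scl-20 were H39E23.3 (0.975), scl-19 (0.960) and cpr-2 (0.954), the last a cathepsin B-like protease gene. Those most like H39E23.3 were scl-20 (0.975), cpr-2 (0.974) and scl-19 (0.972). F56D6.9 was closest to ftn-1 (0.981), a ferritin heavy chain gene, to F15B9.6 (0.979) and to cyp-13A11 (0.976), a cytochrome P450 gene. ftn-1 read 11.59, 11.37, 11.67 and 10.92 in htz-1 and 8.11, 8.05, 8.32 and 8.38 in wt, and 12.74 in triple mutant replicate 3, against at most 8.91 in the other 3 libraries of that genotype. F45D11.14 was closest to sqrd-1 (0.925), which encodes a sulfide:quinone oxidoreductase, to dod-6 (0.914) and to WBGene00009838 (0.911). R05H10.7 was closest to the pseudogenes WBGene00018449, WBGene00018450 and WBGene00018451 (0.942 each), which lie beside F45D11.14 and count as a single pattern because their values are identical. Among the 5 genes themselves the correlations were 0.722 (F56D6.9 with R05H10.7) to 0.975. All of these points share genotypes and batches, so they describe the patterns and carry no test.

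Of 50 listed DAF-16-induced genes 41 had a tested value. In the htz-1 double mutant against htz-1, 24 rose and 2 fell, where 11.5% of all tested genes rose and 8.04% fell, with a median difference of 1.08, against 0.03 over all genes. sod-3, a mitochondrial superoxide dismutase gene and a standard DAF-16 target, rose by 4.26 ± 0.65 (adjusted p = 4.17e-05), and the non-coding tts-1 by 2.31 ± 0.53 (adjusted p = 0.00289). mtl-1, a metallothionein gene, differed by 1.83 ± 0.88 (adjusted p = 0.153) and hsp-12.6, a small heat shock protein gene, by 0.60 ± 0.42 (adjusted p = 0.354). In htz-1 against wt, 24 rose and 3 fell, where 26.4% of all tested genes rose and 24.5% fell (median 1.01, against 0.03 over all genes), among them mtl-1 by 8.82 ± 0.88 (adjusted p = 9.66e-09), dod-3 by 6.73 ± 0.46 (adjusted p = 3.76e-11) and tts-1 by 5.76 ± 0.53 (adjusted p = 3.41e-09), while sod-3 differed by -0.28 ± 0.65 (adjusted p = 0.748).

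In the other contrasts the list had the following counts. In the htz-1 double mutant against daf-2, 22 of 41 rose and 2 fell (median 0.87), where 20.4% of all tested genes rose and 20.1% fell. In the triple mutant against the daf-16 double mutant, 16 rose and 4 fell (median 0.57), where 24.1% rose and 24.3% fell. Without triple mutant replicate 3 these counts were 15 and 8 (median 0.26), where 23.7% of all tested genes rose and 24.5% fell. With each library centred on its median the counts of the list were 25 and 3. In that setting 4781 of all 14482 tested genes rose and 2728 fell, with a median of 0.268 over all genes. In the triple mutant against htz-1, none rose and 3 fell (median -0.33), where 0.677% of all tested genes rose and 0.78% fell. Without replicate 3, none rose and 14 fell, where 0.739% of all tested genes rose and 2.33% fell. Triple mutant replicate 3 lay above the other 3 libraries of its genotype in 32 of the 41 (78%). Of 24 tested DAF-16-repressed genes, 1 rose and 10 fell in the htz-1 double mutant against htz-1 (median -0.56). The lists were drawn up with earlier results of these libraries known, so the counts are not independent evidence. Of 20 tested genes of insulin signalling itself, 3 rose and 1 fell in the htz-1 double mutant against htz-1, near the shares of all genes (11.5% and 8.04%), and the median of 0.000995 turned negative when the libraries were centred on their medians (-0.07) or quantile normalized (-0.02).

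In the scl family, 9 of 24 genes had a tested value, and scl-20 and scl-19 were those with rises over 2 between the htz-1 double mutant and htz-1. scl-17 rose by 1.12 ± 0.37 (adjusted p = 0.0332), scl-2 fell by 1.75 on the log2 scale (adjusted p = 2.32e-06), and 5 did not pass. The median of the 9 was -0.13, and with median centring 2 of them rose and 1 fell. In htz-1 against wt, 4 of 9 rose and 1 fell (median 0.87), where 26.4% of all genes rose and 24.5% fell: scl-5 by 3.44 ± 0.56 (adjusted p = 1.36e-05), scl-24 by 3.24 ± 0.37 (adjusted p = 8.62e-08), scl-2 by 1.70 ± 0.21 (adjusted p = 3.57e-07) and scl-20, while scl-23 fell by 3.90 (adjusted p = 4e-08). scl-19 did not pass in that contrast (0.39 ± 0.99, adjusted p = 0.766). The difference between scl-20 and scl-19 in it was not tested.

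Tissue markers also differed between the genotypes. Sperm markers, the major sperm protein genes among them, were lower for 10 of 10 genes in htz-1 than in wt (median -3.95), where 24.5% of all tested genes were lower and 26.4% higher. They were lower for 10 of 10 in the htz-1 double mutant than in daf-2 (median -2.35), where 20.1% of all genes were lower, and for 10 of 10 in the triple mutant than in the daf-16 double mutant (median -3.86, and -3.51 without triple mutant replicate 3), where 24.3% were. Their mean level was 7.69 to 9.56 in libraries with bon101 and 10.3 to 13.1 in those without it. Embryo markers, 5 of 10 with a tested value, were higher for 5 of 5 in htz-1 than in wt (median 3.78) and lower for 4 of 5 in the htz-1 double mutant than in htz-1 (median -1.37), where 8.04% of all genes were lower. Intestine markers were lower for 7 of 10 and higher for 1 in htz-1 than in wt (median -1.11). In the htz-1 double mutant against htz-1 they were lower for 5 of 10 and higher for 2 (median -0.86).

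In htz-1 against wt the other marker lists held 3 higher and 6 lower of 10 for hypodermis and cuticle, 1 and 2 of 10 for muscle, 2 and 0 of 10 for neurons, 0 and 2 of 10 for germline and oocytes, 2 and 2 of 9 for pharynx and 2 and 0 of 3 for coelomocytes. Of all tested genes, 26.4% were higher and 24.5% lower in that contrast. In the htz-1 double mutant against daf-2, where H39E23.3, F56D6.9 and scl-20 were called higher, neuron markers were higher for 7 of 10 (median 0.90). Of all tested genes, 20.4% were higher and 20.1% lower there. In the same contrast pharynx markers were higher for 4 and lower for 1 of 9 (median 0.76), hypodermis and cuticle markers were lower for 5 of 10 (median -1.65), and intestine markers were higher for 2 and lower for 5 (median -0.50). Muscle markers were higher for 3 of 10, coelomocyte markers for 2 of 3, embryo markers for 1 of 5, and germline and oocyte markers were lower for 1 of 10. Rlog values have no true 0, so no marker can be called absent, and the part of these markers in the results of the 5 genes was not tested.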

How the data were processed

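Whole-animal RNA was extracted with Trizol and miRNeasy Micro columns, and SMART-Seq2 libraries were made, per the labels' protocols. Tools named in the submitters' processing notes are bcl2fastq 2.20 and kallisto 048.0, with build WBcel235, and kallisto divides reads of near-identical transcripts between them. The authors deposited 1 table of rlog (log2) values for 21689 genes in 24 libraries, from -2.01 to 19.7. The sources used here do not name the tool or settings of that transformation. Read depth is unknown, so no counting interval is given.

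All 24 libraries were fitted with limma 3.58.1 (R 4.3.3), 1 mean per genotype, empirical Bayes with an intensity trend and 18 residual degrees of freedom, over the 14482 genes with a mean of at least 3. P-values were two-sided and Benjamini-Hochberg adjusted over those genes, with a threshold of 0.05. Values are means ± SD of 4 libraries and differences ± SE. The fit was tested on simulated data. Nothing says that libraries of 1 genotype came from separate cultures, so the p-values rest on the variation among these libraries alone, which may be technical.

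The labels mark replicate number as a batch. Deviations from group means correlated by 0.05 on average between libraries of the same batch and different genotype (60 pairs, -0.30 to 0.51, 20 over 0.1) and by -0.02 between other pairs. Between daf-2 and wt the correlations were 0.513, 0.435, 0.451 and 0.403 in batches 1 to 4, so the average hides a pairing of these 2 genotypes. The batch stayed out of the reported fit and was a block in an alternative. Other alternatives were the filter, library scaling, variance model, groups in the fit, and leaving out each library or batch.

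The 5 genes and the lists were chosen with earlier results of these data known. For each gene the text names the 3 genes with the highest Pearson correlation and the 3 nearest genes with a value on each side. Genes of the regions and lists that are named singly beyond this were picked after their values were seen. Positions and gene models are from the Ensembl annotation of WBcel235. Protein and promoter sequences were not used here.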

Additional observations from a re-analysis of the deposited data

Results flagged for a closer look

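In 30 groups of 4 libraries, 1 library was examined for standing farther from the rest than Dixon's critical ratio of 0.829, a limit that chance passes in about 1 of 20 groups. It was passed by triple mutant replicate 3 for R05H10.7 (8.58, ratio 0.952), scl-20 (5.87, ratio 0.887) and F45D11.14 (12.77, ratio 0.831). It was also passed by replicate 3 of the htz-1 double mutant for F45D11.14, with 12.51 against 12.85 to 12.88 (ratio 0.906).

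The htz-1 difference of F45D11.14 was negative in every batch in the daf-2 background and positive in every batch in both others. It was 4.12 lower in the daf-2 than in the wt background (-4.12), and 6.29 higher in the daf-16 double mutant than in the daf-2 background. These differences contain the contrasts that chose the gene and were not tested.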

How the results depend on the processing

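The alternatives were no minimum mean or a minimum of 5 (which removes scl-20, so it has no value there), median centring, quantile normalization, no trend, robust variance, array weights, only the groups compared, a replicate block, and 28 fits that left out a library or a batch. Of the tested values of the 5 genes, 249 kept their direction and side of the threshold under the settings that used all libraries, 5 lost their call, 7 gained one and 3 reversed, and in the leave-out fits 780 kept them, 35 lost a call, 14 gained one and 11 reversed. The causes were not tested. The replicate block changed none of the tested calls of the 5 genes, with adjusted p = 0.0292 for scl-20 in htz-1 against wt (1.84), and 2988 genes called in the htz-1 double mutant against htz-1.

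The F56D6.9 difference between the htz-1 double mutant and daf-2 (3.32) lost its call with no filter (adjusted p = 0.0529), no trend (0.0569) and robust variance (0.0658). With only the groups compared in the fit, H39E23.3 in htz-1 against wt (1.11, adjusted p = 0.0245), F45D11.14 in the htz-1 double mutant against daf-2 (-0.87, 0.00671) and R05H10.7 in the htz-1 double mutant against htz-1 (2.05, 0.00368) passed, and H39E23.3 in the triple mutant against the daf-16 double mutant (2.69, 0.101) did not.

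Array weights gave triple mutant replicate 3 the lowest weight, 0.25. With them H39E23.3 (1.07) was not called and R05H10.7 (-0.38) reversed in the triple mutant against the daf-16 double mutant. R05H10.7 passed in the htz-1 double mutant against htz-1 (1.96). In the triple mutant against htz-1, H39E23.3 reversed (-0.10) and F56D6.9 (-6.80) and R05H10.7 (-2.12) passed. The htz-1 effect in the daf-16 double mutant background minus that in the wt background was -6.82 for F56D6.9, which passed, and -0.998 for R05H10.7, which reversed. For scl-20 the daf-16 double mutant minus wt turned to -0.12 with median centring, and the htz-1 effect in the daf-2 background minus that in wt to 0.20 with quantile normalization and 0.29 with array weights.

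Numbers of genes called with array weights and with only the groups compared were 5496 and 4573 in the htz-1 double mutant against htz-1 (2836 as reported), 3072 and 109 in the triple mutant against htz-1 (211, and 332 with no filter), 1799 and 26 for the htz-1 effect between the daf-16 double mutant and wt backgrounds (65), and 299 and 54 in the daf-16 double mutant against wt (172). They were 750 in daf-2 against wt with only those groups (1793), and with array weights 7760 in the triple against the htz-1 double mutant (4371), 3049 for the htz-1 effect between the daf-2 and wt backgrounds (1932) and 6273 between the daf-16 double mutant and daf-2 backgrounds (3838). The percent of calls that were higher moved with median centring and quantile normalization, to 63.7 and 60.2 in the triple against the daf-16 double mutant (49.8), 44.6 and 48.8 in the daf-16 double mutant against daf-2 (62.4), 46.4 and 52.6 in the daf-16 double mutant against wt (67.4), 48.6 and 36.5 for the htz-1 effect in the daf-16 double mutant minus wt backgrounds (30.8), and 55.9 and 50.9 for the daf-16 double mutant minus daf-2 backgrounds (37.8). Centring moved the median of all genes to 0.268 in the triple against the daf-16 double mutant (0.0315) and to -0.134 in the daf-16 double mutant against daf-2 (0.0306).

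Over the leave-out fits, htz-1 minus wt ranged between 0.79 and 1.29 for H39E23.3, 1.94 and 4.03 for F45D11.14, and 1.28 and 2.39 for scl-20. The htz-1 double mutant minus daf-2 ranged between 3.03 and 3.87 for F56D6.9 and 1.53 and 1.98 for scl-20. The triple minus the daf-16 double mutant ranged between 0.97 and 3.65 for H39E23.3, 0.0436 and 3.61 for F56D6.9, and -0.71 and 1.54 for R05H10.7. The htz-1 double mutant minus htz-1 ranged between 4.04 and 4.30 for F56D6.9, 2.87 and 3.63 for F45D11.14, and 1.48 and 2.37 for R05H10.7. The triple mutant minus htz-1 ranged between -0.45 and 2.62 for H39E23.3, -6.95 and -3.47 for F56D6.9, 0.38 and 1.65 for F45D11.14, -2.71 and -0.17 for R05H10.7, and -2.30 and 0.20 for scl-20. The htz-1 effect in the daf-16 double mutant background minus that in wt ranged between -0.27 and 2.79 for H39E23.3, -7.16 and -3.67 for F56D6.9, 0.26 and 3.20 for F45D11.14, -1.23 and 1.53 for R05H10.7, and -2.22 and 0.25 for scl-20. Of the untested differences, the daf-16 double mutant minus wt ranged between -0.24 and 0.50 for F56D6.9, -2.08 and 0.27 for F45D11.14, and -0.0765 and 0.129 for scl-20. The htz-1 effect in the daf-2 minus wt backgrounds ranged between -0.62 and 0.47 for scl-20, and in the daf-16 double mutant minus daf-2 backgrounds between -2.79 and 0.0492 for H39E23.3 and -3.20 and 0.28 for F56D6.9. Genes called ranged between 1452 and 3108 in the htz-1 double mutant against htz-1, 16 and 476 in the triple mutant against htz-1, 2 and 549 for the htz-1 effect between the daf-16 double mutant and wt backgrounds, 987 and 2083 in daf-2 against wt, 2174 and 4007 in the daf-16 double mutant against daf-2, 59 and 222 in the daf-16 double mutant against wt, 2603 and 4887 in the triple against the htz-1 double mutant, 628 and 2438 for the htz-1 effect between the daf-2 and wt backgrounds, and 2344 and 4330 between the daf-16 double mutant and daf-2 backgrounds.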

Other observations

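Of the 30 genes that lie nearest to the 5, 19 had a tested value. In the htz-1 double mutant against htz-1, 8 of the 19 were higher and 1 lower (median 0.76), where 11.5% of all tested genes were higher and 8.04% lower. Without triple mutant replicate 3, 10 were higher and 1 lower, where 12.7% of all tested genes were higher and 8.49% lower. In daf-2 against wt, 9 were higher and 1 lower (median 0.78), where 6.43% of all genes were higher. In the daf-16 double mutant against daf-2, 1 was higher and 9 were lower (median -0.77; 10 lower without triple mutant replicate 3), where 9.65% of all genes were lower. In htz-1 against wt, 6 were higher and 2 lower (median 0.46), where 26.4% of all genes were higher and 24.5% lower. Of the 19, scl-19, asp-18 and R05H10.1 passed the minimum mean through daf-2 and the htz-1 double mutant alone, where they were high. D1086.9 passed it through the htz-1 double mutant, where it was high, and was low in daf-2. Neighbours of 1 gene share a region, and 2 of the 19 are the pseudogenes with identical values, so the counts describe these regions and support nothing beyond them.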
